A study of Mus musculus with 6 samples.

Results

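The genes described here are Trp53, which encodes the tumour suppressor p53, with regulators of the p53 protein and genes that p53 is known to activate in human or mouse cells. Trp53inp2, the paralog of Trp53inp1, is listed too. The genes were chosen by symbol with earlier results of these data known. All 38 listed symbols were found once each among the 54532 genes of the count table. The cells were mouse endothelial cells, the lining cells of blood vessels, kept in a complete endothelial medium. The RBPMS group (3 libraries) received a lentivirus that expresses RBPMS, an RNA-binding protein, and the control group (3 libraries) received a lentivirus with an empty vector, so the controls had been exposed to virus too. Both groups were harvested 72 h after exposure, and the comparison asks which transcripts differ when RBPMS is overexpressed. The labels give neither the strain, age and vascular bed of the cells nor the vector's promoter or the species of its RBPMS sequence. Nothing in the labels says that libraries of 1 group came from separate cultures or animals, so p-values measure the spread between these libraries, which may be technical.

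p53 is a transcription factor that is held at a low level by the ubiquitin ligase MDM2 and its partner MDM4. DNA damage and other stresses release p53 from this control, largely without a change in its mRNA, and p53 then switches on genes for cell cycle arrest, repair, metabolism and cell death. Several of these targets, MDM2 and the phosphatase PPM1D among them, act back on p53 and limit the response. In endothelial cells p53 is known as a regulator of growth arrest and senescence.

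p53 binds DNA as a tetramer, and its site is made of a pair of 10-base half-sites that read alike on both strands. The promoters of 32 of the 38 genes were matched by symbol in RefSeq (GRCm38.p6), each from 250 bases before to 50 bases after a start, and Perp, Ddb2, Xpc, Rrm2b, Trp53inp1 and Zmat3 were not. The half-site consensus occurred in 12 of these 32 genes (37.5%), against 2582 of all 27025 genes (9.55%) with a promoter of the same length. A pair of half-sites at most 13 bases apart occurred in 0 of the 32 genes and in 20 of all 27025. Matches are a description of these windows only, and many known p53 sites lie in introns or further away. The promoters of 3 genes described below as higher with RBPMS (Ccng1, Mdm2, Ei24) and of 1 that was not called (Ppm1d) are shown as examples of the 12, of which 5 were called and 7 were not. Of the 32 genes only 9 were called, so the 5 are 55.6% of the called genes with a promoter. Whether half-sites and calls go together was not tested. The promoters shown were chosen after the values were seen, and each holds 1 half-site, given in capitals, in the direction of the gene. The first base of the half-site, counted from the annotated start, is at -185 in Ccng1 (chr11:40755237-40755536, minus strand), -186 in Mdm2 (chr10:117710709-117711008, minus strand), -10 in Ei24 (chr9:36797285-36797584, minus strand) and -132 in Ppm1d (chr11:85311004-85311303, plus strand).
Ccng1: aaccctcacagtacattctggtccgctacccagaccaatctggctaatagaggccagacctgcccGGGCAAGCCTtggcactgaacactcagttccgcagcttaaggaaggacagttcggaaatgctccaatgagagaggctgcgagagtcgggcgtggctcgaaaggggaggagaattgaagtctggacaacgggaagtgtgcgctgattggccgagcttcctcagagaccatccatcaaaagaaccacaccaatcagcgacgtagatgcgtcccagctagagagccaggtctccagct
Mdm2: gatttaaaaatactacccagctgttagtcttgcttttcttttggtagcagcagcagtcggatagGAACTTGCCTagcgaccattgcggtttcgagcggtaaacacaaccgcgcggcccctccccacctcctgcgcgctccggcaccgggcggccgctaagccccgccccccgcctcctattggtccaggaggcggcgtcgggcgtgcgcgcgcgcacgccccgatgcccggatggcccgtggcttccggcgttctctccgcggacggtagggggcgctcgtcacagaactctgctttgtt
Ei24: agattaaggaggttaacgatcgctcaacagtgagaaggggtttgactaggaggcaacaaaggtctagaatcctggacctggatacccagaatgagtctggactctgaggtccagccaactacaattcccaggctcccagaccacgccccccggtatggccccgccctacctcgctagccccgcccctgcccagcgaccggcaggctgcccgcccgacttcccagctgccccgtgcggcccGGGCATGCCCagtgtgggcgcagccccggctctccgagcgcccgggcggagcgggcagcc
Ppm1d: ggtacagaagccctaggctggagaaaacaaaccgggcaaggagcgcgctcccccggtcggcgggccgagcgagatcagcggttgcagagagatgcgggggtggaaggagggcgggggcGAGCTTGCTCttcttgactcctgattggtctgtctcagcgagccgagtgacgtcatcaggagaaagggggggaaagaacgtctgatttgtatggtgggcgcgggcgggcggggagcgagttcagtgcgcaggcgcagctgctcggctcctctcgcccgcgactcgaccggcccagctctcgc

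Library totals ran from 18199702 to 21492957 counts in the RBPMS group and from 15779567 to 23076124 in the controls. Control replicate 3 stood apart: its log2 levels over 13898 tested genes had Pearson correlations of 0.959 to 0.965 with the remaining libraries, which correlated with each other at 0.993 to 0.997. Rbpms itself had 131, 147 and 133 CPM (counts scaled to library size) in RBPMS replicates 1 to 3, against 57.0, 56.8 and 55.1 CPM in control replicates 1 to 3, so every library matched its label (exact two-sided permutation test over libraries on the log2 scale, p = 0.1, which is the smallest that 3 against 3 can give). Reads of the introduced and of the cells' own Rbpms cannot be told apart. All 8 endothelial markers were detected, summing to 15135 to 16024 CPM with RBPMS, 17381 to 17857 CPM in control replicates 1 and 2 and 11358 CPM in control replicate 3. Without control replicate 3, edgeR called Erg and Emcn higher with RBPMS and Vwf and Kdr lower, and did not call the other 4. Of these, Cdh5 (VE-cadherin, edgeR adjusted p = 0.090) was called higher by DESeq2 on the same libraries (adjusted p = 0.0099). Of the defining markers of other cells, Ptprc (leukocytes), Acta2 and Myh11 (smooth muscle), Col3a1 and Dcn (fibroblasts) were under 1 CPM in every library, and Pdgfra, of the fibroblast list, was at 4.93 to 5.20 CPM with RBPMS and 4.49 to 6.78 CPM in controls. In the lymphatic list Pdpn was at 0 and Prox1 under 1 CPM, while Lyve1 was at 363.5 to 391.7 CPM with RBPMS, 433 to 479 CPM in control replicates 1 and 2 and 360 CPM in control replicate 3, and was called lower without control replicate 3 (edgeR adjusted p = 0.0020). The summed leukocyte and macrophage list was 53.3 to 58.4 CPM with RBPMS and 41.3 to 46.5 CPM in controls, nearly all of it from the lysosomal gene Cd68, which was itself called higher without control replicate 3 (log2 fold change 0.34, edgeR adjusted p = 0.0054), with Adgre1 and Cd3e at 0 and 5 of the 6 genes under 1 CPM throughout. The mesothelial list summed to at most 21.2 CPM with RBPMS and 21.3 to 26.1 CPM in controls. Most of it came from Msln, at 15.9 to 20.02 CPM with RBPMS and 20.03 to 24.4 CPM in controls. The cardiomyocyte list summed to 1.81 to 2.42 CPM with RBPMS and 0.816 to 3.78 CPM in controls, with Tnni3 at 2.90 CPM in control replicate 3. The part of these lists in any result was not tested. In bulk RNA, more cells with a transcript and more transcript per cell cannot be told apart.

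With RBPMS, 11 of the 36 genes that passed the low-count filter rose and 0 fell, by 1.12 to 1.41-fold, in the test without control replicate 3. The 11 were the feedback genes Ccng1 and Mdm2, the growth and survival genes Zmat3 and Ei24, and the autophagy genes Trp53inp1 and Trp53inp2. The repair polymerase Polk and the metabolic genes Dcxr, Ephx1, Abhd4 and Sesn2 made up the rest. The share of 30.6% compares with 3.81% of all 14123 genes tested that rose and 3.43% that fell, 7.24% in all (edgeR quasi-likelihood test, Benjamini-Hochberg adjusted p under 0.05 over all genes, 3 RBPMS and 2 control libraries). The list was drawn up with earlier results of these data known, so the contrast with all genes is descriptive. The members' median log2 fold change was 0.098, against -0.0025 over all tested genes, and 30 of 36 were positive, against 49.3% of all genes. DESeq2 on the same 5 libraries called 10 members, all of them higher and without Ei24, against 5.49% of all genes (2.95% higher and 2.54% lower). Over all 6 libraries edgeR called 0 of 36 members and 0.00% of 13898 genes, while 8 members had an unadjusted p under 0.05, all 8 of them higher, against 3.48% of all genes on that side and 7.56% on either. DESeq2 over all 6 libraries called 2 members, Ccng1 and Trp53inp1 (adjusted p = 0.023 for each), against 0.403% of all genes (0.295% higher and 0.108% lower), and limma-voom called 0. A limma-voom fit that keeps all 6 libraries and weights each by its quality called 10 members higher and 0 lower (Ei24 was the one lost). Of all 13898 genes it called 1087, with 555 higher and 532 lower. It gave control replicate 3 a weight of 0.029, against 1.25 to 3.31 for the others.

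**Figure D1:**
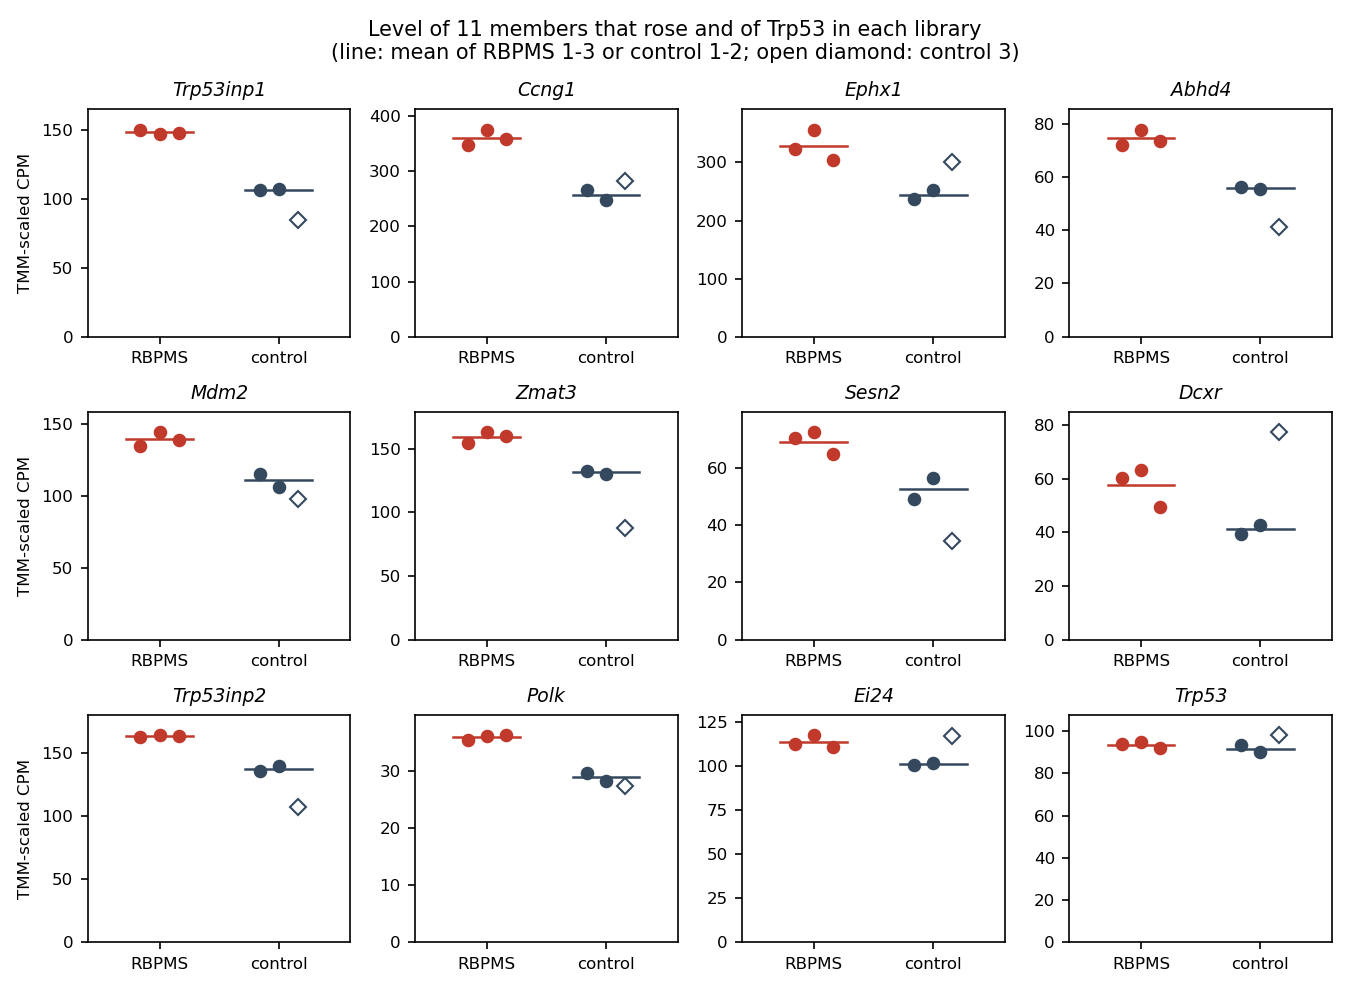
Normalised level (TMM-scaled CPM, vertical axis from 0) of the 11 members that rose and of Trp53 in each RBPMS and control library, with the mean of RBPMS replicates 1 to 3 and of control replicates 1 and 2 as lines and control replicate 3 as an open diamond. The RBPMS libraries lie above all 3 controls in 9 of the 11, and not in Dcxr and Ei24, where control replicate 3 is at 77.2 and 117 CPM.

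Levels are CPM scaled by TMM, a normalisation for library composition. Fold changes are RBPMS over control on the log2 scale with standard errors from edgeR. Unless stated otherwise they come from the fit without control replicate 3, and no member passed the edgeR test over all 6 libraries. Over all 6 libraries RBPMS lay above every control in 12 of 36 members, against 12.1% of all genes, and below every control in 2 (Triap1 and Fdxr), against 12.6% (24.7% on either side). Without control replicate 3 these counts were 18 and 3, against 18.3% and 19.0% of all genes (37.4% on either side). Among the 11 that rose, 9 kept RBPMS above all 3 controls and all 11 kept a positive log2 fold change over all 6 libraries.

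Trp53 mRNA did not pass the test. Trp53 (ENSMUSG00000059552, chromosome 11, 69580359 to 69591873, plus strand, GRCm38) had 93.7, 94.7 and 91.9 CPM in RBPMS replicates 1 to 3, against 93.2, 90.1 and 98.0 CPM in control replicates 1 to 3. The groups overlapped, and the log2 fold change was 0.030 ± 0.050 (SE, adjusted p = 0.80). Its pseudogene copy Trp53-ps had at most 25 counts in a library, so reads of the copy can account for little of the 1461 to 2227 counts of Trp53. The related family members Trp63 and Trp73 had too few counts to be tested.

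In the feedback loop, Mdm2 and Ccng1 rose while Mdm4 and Ppm1d did not pass the test. Mdm2 (ENSMUSG00000020184, chromosome 10, 117688875 to 117710758, minus strand), the ubiquitin ligase that marks p53 for breakdown, had 135, 144 and 139 CPM in RBPMS replicates 1 to 3, against 116, 106 and 97.7 CPM in control replicates 1 to 3. Every RBPMS library was above every control, and the log2 fold change was 0.33 ± 0.05 (adjusted p = 3.5e-04). Ccng1 (ENSMUSG00000020326, chromosome 11, 40748552 to 40755311, minus strand) encodes cyclin G1, which recruits a phosphatase to MDM2. It had 347, 376 and 358 CPM with RBPMS, against 266, 248 and 282 CPM in controls, again without overlap, and its log2 fold change was 0.49 ± 0.05 (adjusted p = 2.9e-06). Mdm4 (chromosome 1, 132959484 to 133030561, minus strand), the MDM2 partner that masks p53, had 159, 159 and 169 CPM with RBPMS, against 167, 155 and 86.9 CPM in controls. Only control replicate 3 was low, and the log2 fold change was 0.015 ± 0.05, against 0.25 ± 0.24 with that library included. Ppm1d (chromosome 11, 85311244 to 85347066, plus strand), the phosphatase that removes activating marks from p53 and its kinases, had 24.2, 22.6 and 25.3 CPM with RBPMS, against 20.6, 22.3 and 26.1 CPM in controls. These values overlapped through control replicate 3, and the log2 fold change was 0.16 ± 0.09 (adjusted p = 0.30).

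Of the arrest and growth genes, 1 of 5 tested rose (20%, against 3.81% of all genes tested). Zmat3 (ENSMUSG00000027663, chromosome 3, 32334792 to 32366014, minus strand), a zinc finger protein that binds RNA, had 155, 163 and 160 CPM with RBPMS, against 133, 131 and 87.5 CPM in controls. The groups did not overlap, and the log2 fold change was 0.28 ± 0.05 (adjusted p = 8.8e-04), and 0.45 ± 0.17 with control replicate 3 included. Btg2, an antiproliferative cofactor of mRNA decay, averaged 215 ± 4.35 CPM with RBPMS and 208 ± 10.7 CPM in controls (SD, n = 3 each). The Polo-like kinase genes had log2 fold changes close to or under their errors, 0.015 ± 0.05 for Plk2 and 0.058 ± 0.06 for Plk3. Rap2b, a small GTPase, was at 21.1 to 21.7 CPM with RBPMS and at 18.0 to 28.4 CPM in controls, with 0.19 ± 0.09 and an adjusted p of 0.22. The secreted cytokine gene Gdf15 had 6 to 18 counts in an RBPMS library and 4 to 17 in a control and was not tested.

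Among death and survival genes 1 of 7 tested rose (14.3%, against 3.81% of all genes tested), and by the smallest fold of the 11. Ei24 (ENSMUSG00000062762, chromosome 9, 36779159 to 36797393, minus strand), an endoplasmic reticulum membrane protein with roles in autophagy and cell death, had 113, 118 and 111 CPM with RBPMS, against 100, 102 and 117 CPM in controls. Control replicate 3 overlapped the RBPMS group. The log2 fold change was 0.17 ± 0.05 (edgeR adjusted p = 0.041), and the call was lost in DESeq2 (adjusted p = 0.081), in limma-voom (0.056), and without control replicate 1, control replicate 2, RBPMS replicate 1 or RBPMS replicate 2 as well (0.11 to 0.25). Apaf1, the scaffold of the apoptosome, had 74.0 to 75.9 CPM with RBPMS and 43.5 to 74.3 CPM in controls. The exonuclease gene Aen was at 51.8 to 57.8 CPM with RBPMS and 33.2 to 48.0 CPM in controls, with 0.18 ± 0.07 and an adjusted p of 0.12. Cdip1, a mediator of p53-dependent death, was at 58.2 to 58.9 CPM with RBPMS and 52.7 to 56.5 CPM in controls, with an adjusted p of 0.40. Both separated the groups without passing the test. The log2 fold change was -0.10 ± 0.07 for Phlda3, an inhibitor of the kinase Akt, -0.086 ± 0.07 for Triap1, an inhibitor of apoptosis, and -0.021 ± 0.06 for Rps27l, a ribosomal protein paralog. For these 3 short genes control replicate 3 was the highest library, as for Rps27l with 129 CPM against 60.3 to 64.6 CPM with RBPMS and 64.5 and 62.9 CPM in control replicates 1 and 2. Whether reads of Rps27l are shared with its relative Rps27 was not tested. Perp, a desmosomal protein gene of p53-dependent death, had 0 counts in all 6 libraries, which allows up to 3 counts or 0.13 to 0.19 CPM per library, for counting error only.

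Trp53inp1 and Trp53inp2, which encode related proteins of autophagy, both rose. Trp53inp1 (ENSMUSG00000028211, chromosome 4, 11156431 to 11174379, plus strand), whose product also promotes p53 phosphorylation, had 150, 147 and 147 CPM with RBPMS, against 106, 107 and 84.5 CPM in controls. The groups were far apart, with a log2 fold change of 0.48 ± 0.05 (adjusted p = 2.4e-06), the smallest p of all members. Trp53inp2 (ENSMUSG00000038375, chromosome 2, 155381059 to 155389850, plus strand), its paralog, had 163, 164 and 163 CPM with RBPMS, against 136, 139 and 107 CPM in controls. It rose by 0.25 ± 0.05 (adjusted p = 1.7e-03). Dram1, a lysosomal membrane protein of autophagy, was at 3.12 to 3.81 CPM with RBPMS and 2.45 to 4.32 CPM in controls, too low to show a small change (0.0040 ± 0.235).

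Only Polk passed the test among 5 repair and nucleotide supply genes (20% rose, against 3.81% of all genes tested). Polk (ENSMUSG00000021668, chromosome 13, 96480690 to 96542579, minus strand), a DNA polymerase that copies past damaged bases, had 35.5, 36.2 and 36.2 CPM with RBPMS, against 29.6, 28.2 and 27.3 CPM in controls. All RBPMS libraries were above all controls, and the log2 fold change was 0.32 ± 0.08 (adjusted p = 0.013). The edgeR call was lost without control replicate 1 as well (adjusted p = 0.052) and without control replicate 2 as well (0.13). The nucleotide excision repair genes Xpc and Ercc5 had log2 fold changes of 0.022 ± 0.08 and 0.062 ± 0.08, and Rrm2b, the ribonucleotide reductase subunit that p53 induces, had 0.096 ± 0.08. Ddb2, whose product recognises ultraviolet damage, was near the filter at 1.81 to 2.04 CPM with RBPMS and 1.98 to 2.39 CPM in controls.

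Of the metabolic and redox genes, the largest group, 4 of 11 tested rose (36.4%, against 30.6% of all members and 3.81% of all genes tested). Ephx1 (ENSMUSG00000038776, chromosome 1, 180976210 to 181020904, minus strand), microsomal epoxide hydrolase, had 324, 357 and 305 CPM with RBPMS, against 236, 252 and 301 CPM in controls. The groups were separate by a narrow margin, with control replicate 3 at 301 CPM, and the log2 fold change was 0.43 ± 0.06 (adjusted p = 6.9e-05). Abhd4 (ENSMUSG00000040997, chromosome 14, 54254188 to 54270637, plus strand), a lipase of the N-acylethanolamine pathway, had 72.1, 77.8 and 73.5 CPM with RBPMS, against 56.2, 55.4 and 41.2 CPM in controls. It rose by 0.42 ± 0.06 with no overlap (adjusted p = 1.5e-04). Dcxr (ENSMUSG00000039450, chromosome 11, 120725399 to 120727281, minus strand), a reductase of sugars and carbonyls, had 60.1, 63.2 and 49.4 CPM with RBPMS, against 39.4, 42.8 and 77.2 CPM in controls. Control replicate 3 was the highest library of all 6, so the log2 fold change of 0.49 ± 0.09 (adjusted p = 1.4e-03) became 0.11 ± 0.27 with it.

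The sestrin genes, which encode stress sensors that restrain the growth kinase mTORC1, differed in their calls: Sesn2 rose and Sesn1 did not pass the test. Sesn2 (ENSMUSG00000028893, chromosome 4, 132492032 to 132510501, minus strand) had 70.5, 72.5 and 64.9 CPM with RBPMS, against 49.0, 56.5 and 34.5 CPM in controls. It rose by 0.39 ± 0.07 (edgeR adjusted p = 1.3e-03, and 0.066 without control replicate 1 as well). Sesn1 was at 46.8 to 49.6 CPM with RBPMS and 49.3 to 70.5 CPM in controls, with a log2 fold change of -0.18 ± 0.08 and an adjusted p of 0.19. Of the others, Pmm1, a phosphomannomutase, came nearest to the threshold (0.26 ± 0.08, adjusted p = 0.060) and had 28.4 to 32.3 CPM with RBPMS, against 24.5, 25.5 and 46.9 CPM in controls. Log2 fold changes were 0.15 ± 0.08 for the thiamine transporter Slc19a2, 0.055 ± 0.08 for the adenylate kinase Ak1, 0.020 ± 0.11 for Tigar, a fructose bisphosphatase that lowers glycolytic flux, and -0.23 ± 0.13 for the mitochondrial reductase Fdxr. Fdxr had 8.01, 7.25 and 7.55 CPM with RBPMS, against 9.10, 8.75 and 13.2 CPM in controls, lower in every RBPMS library without passing the test. Ddit4l, an mTORC1 inhibitor at 2.73 to 4.46 CPM with RBPMS and 2.20 to 3.04 CPM in controls, had 0.44 ± 0.25. Pmm1, Slc19a2, Ak1, Tigar, Fdxr and Ddit4l did not pass the test.

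**Figure D2:**
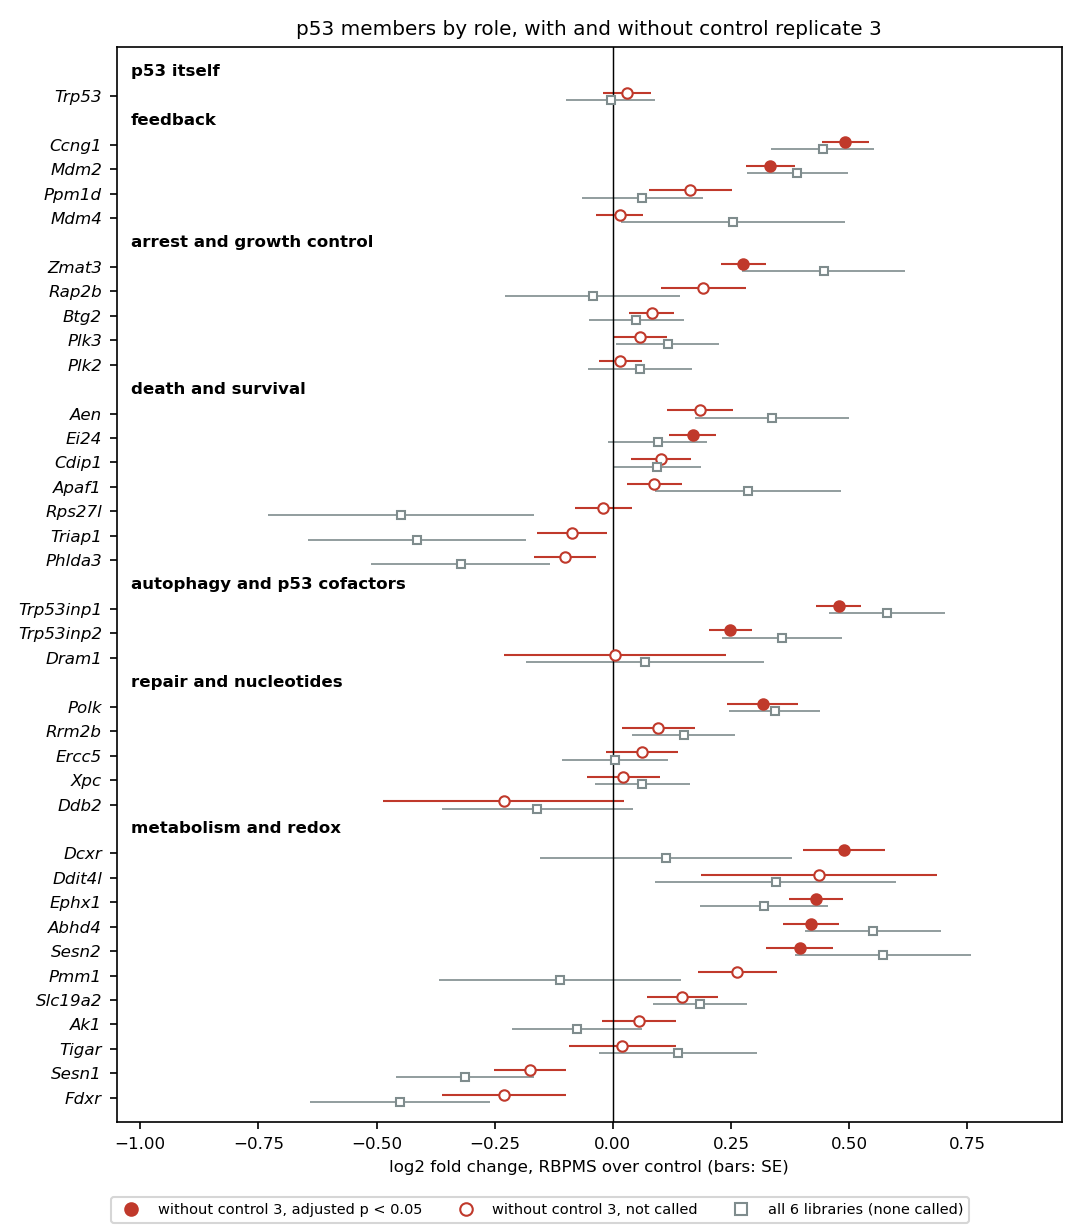
Log2 fold change of RBPMS over control (horizontal axis, bars are standard errors) for the 36 tested members, grouped by role, from the fit without control replicate 3 (circles, filled where the adjusted p was under 0.05) and over all 6 libraries (squares). The 11 filled circles lie between 0.17 and 0.49, and the members with negative values have no filled circle.

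Comparing paralogs within a library removes differences in scaling between libraries, and 4 pairs were compared (exact two-sided permutation tests over libraries, n = 3 and 3, smallest possible p of 0.1). The log2 count ratio of Trp53inp1 to Trp53inp2 was -0.12, -0.16 and -0.15 in RBPMS replicates 1 to 3, against -0.35, -0.38 and -0.34 in control replicates 1 to 3. The groups did not overlap, control replicate 3 sat with the other controls, and the difference was 0.22 (p = 0.1, 0.2 adjusted over the 4 pairs, exact permutation test). For Sesn1 to Sesn2 the ratio was -0.55, -0.55 and -0.47 with RBPMS, against 0.0074, 0.075 and 1.03 in controls. The difference was -0.90 (p = 0.1, 0.2 adjusted, exact permutation test) and -0.57 without control replicate 3, with the groups apart both times. Mdm2 to Mdm4 had -0.24, -0.14 and -0.28 with RBPMS, against -0.53, -0.54 and 0.17 in controls. Control replicate 3 put that ratio above the RBPMS range (difference 0.083, p = 1, exact permutation test), and without it the difference was 0.32 with no overlap. Plk2 to Plk3 overlapped in both settings (difference -0.059, p = 0.4, exact permutation test).

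**Figure D3:**
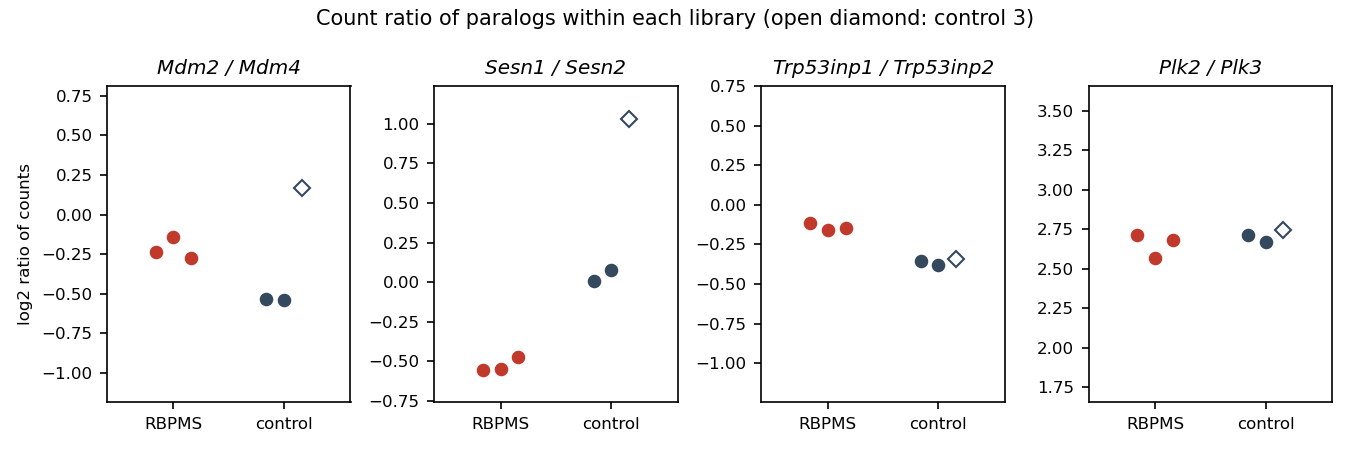
Log2 ratio of the counts of 4 pairs of related genes within each library (vertical axis, each panel spans the same range), RBPMS libraries on the left and controls on the right, with control replicate 3 as an open diamond. The RBPMS and control libraries are apart for Sesn1 to Sesn2 and for Trp53inp1 to Trp53inp2, and control replicate 3 is the library that joins them for Mdm2 to Mdm4.

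Control replicate 3 departed from the other controls along gene length, among the members as among all genes. Gene length here is the deposited value, which can be shorter than the span between a gene's coordinates. Tested genes were split by it into 5 groups of about equal size. In the shortest (up to 1933 bases) its median log2 difference from control replicates 1 and 2 was 0.52, and 0.85 over the 4 members there. In the longest (7049 bases and more) it was -0.52, and -0.59 over the 5 members. In the middle group (3258 to 4743 bases) the medians differed in sign, 0.027 over all genes and -0.13 over the 8 members. This library lay outside the range of the other 5 for 27 of 36 members and for 80.0% of all genes. Among the 36 tested members those pulled up most were Rps27l (1.02), Dcxr (0.91) and Pmm1 (0.91), and those pulled down most were Mdm4 (-0.89) and Apaf1 (-0.70). Some members did not follow length: Rap2b (6793 bases) was at 0.60 and Cdip1 (10094 bases) at 0.020. Sesn1 (0.37) and Sesn2 (-0.62), both in the middle length group, went in opposite directions. The 11 members that rose spanned lengths of 1144 to 11435 bases. With a per-library length trend as an offset, the fit without control replicate 3 called 12 members, the 11 and Pmm1. That fit called 1014 of all genes (556 higher and 458 lower). The cause of this library's departure was not tested.

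**Figure D4:**
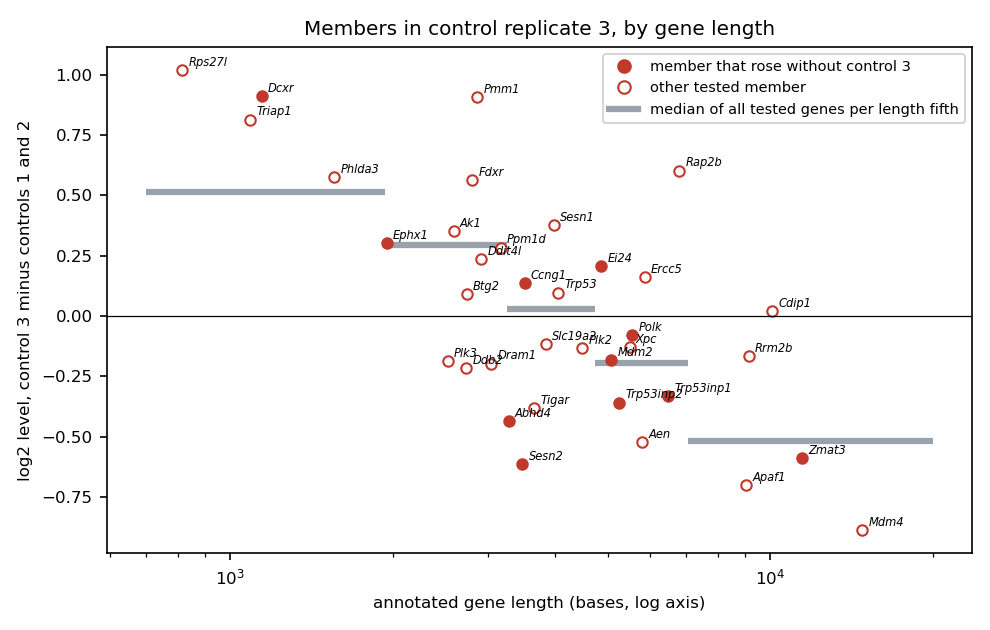
Log2 difference of control replicate 3 from the mean of control replicates 1 and 2 (vertical axis) against annotated gene length in bases (log axis) for the 36 tested members, filled where the member rose, with the median of all tested genes in each of 5 length groups as bars. Short members such as Rps27l (1.02) lie high and long ones such as Mdm4 (-0.89) lie low. Some members do not follow length, such as Rap2b (6793 bases, 0.60) and Cdip1 (10094 bases, 0.020).

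Set against length, so that genes can be compared, the members' levels ranged widely. Per kilobase of deposited gene length, levels with RBPMS were highest for Ephx1 (168 CPM per kb with RBPMS, 125 in control replicates 1 and 2), Plk2 (131 and 130), Phlda3 (103 and 111) and Ccng1 (103 and 73.1). In control replicates 1 and 2, though, Rps27l (78.1) and Btg2 (74.2) stood above Ccng1. At the other end were Ddit4l (1.19 and 0.884), Dram1 (1.11 and 1.11), Ddb2 (0.716 and 0.842) and Gdf15 (0.289 and 0.202). Trp53 lay in between at 23.1 and 22.7 CPM per kb, close to Mdm2 at 27.5 and 21.8. Over all 38 members the summed share of all counts was 0.356%, 0.370% and 0.355% in RBPMS replicates 1 to 3, against 0.318%, 0.320% and 0.319% in control replicates 1 to 3. These shares did not overlap. A sum weighs abundant genes most. Among these, Ccng1 averaged 360 CPM with RBPMS and 257 CPM in control replicates 1 and 2, and Ephx1 329 and 244 CPM. Plk2, which was not called, averaged 590 and 584 CPM.

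A list of 54 further p53 targets, also drawn up with earlier results of these data known, held genes called in both directions. Of 49 tested entries 10 rose (20.4%) and 5 fell (10.2%), against 3.81% and 3.43% of all genes, and their median on the log2 fold scale was 0.012. Over all 6 libraries 0 were called by edgeR, with 10 (20.4%) at an unadjusted p under 0.05 against 7.56% of all genes, and 1 by DESeq2, against 0.403%. Whether this list differed from the members was not tested. The smallest p among those that rose belonged to the receptor Eda2r (0.62 ± 0.06), Zfp365 (0.60 ± 0.08), which takes part in genome stability, Prkab1, a subunit of AMP-activated kinase (0.37 ± 0.06), and the cell cycle inhibitor Cdkn1a (0.30 ± 0.05). Cdkn1a, the best known arrest target of p53, had 317, 331 and 298 CPM with RBPMS, against 256, 255 and 245 CPM in controls. Those that fell with the smallest p were the receptor Lrp1 (-0.59 ± 0.12), the matrix protein Thbs1 (-0.53 ± 0.11), Trp53i11 (-0.20 ± 0.05) and the adhesion protein Ninj1 (-0.24 ± 0.06). Lrp1, Thbs1 and Trp53i11 were lowest in control replicate 3, and their groups overlap when it is included. Some death genes were named after their values were seen. Bbc3 (PUMA, 0.37 ± 0.09) and Bax (0.20 ± 0.06, -0.19 over all 6 libraries) also rose in the fit without control replicate 3. Bax passed narrowly in edgeR (adjusted p = 0.045) and was not called by DESeq2 on the same libraries (adjusted p = 0.076). The death receptor genes Fas (-0.015 ± 0.07) and Tnfrsf10b (-0.0045 ± 0.05) were not called, and Pmaip1 (NOXA) had 0 counts.

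Among 35 upstream kinases and modifiers of p53, of which 33 were tested, edgeR called 0 without control replicate 3, with 4 (12.1%) at an unadjusted p under 0.05 against 20.9% of all genes, and DESeq2 and limma-voom also called 0. Their median log2 fold change was -0.015. This list holds the damage kinases Atm, Atr, Chek1 and Chek2 and the deubiquitinase Usp7.

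Exons of 8 members overlap other annotated genes, and whether counting used strand is not stated. Of the members that rose these were Ei24, which overlaps an antisense transcript, and Ephx1, which overlaps a pseudogene on its own strand, and their values are uncertain where reads could be split. The other 6 (Plk3, Rap2b, Cdip1, Ddb2, Rrm2b and Tigar) were not called. Of the further p53 targets named above, exons of Bax overlap a protein-coding gene on its own strand. Those of Cdkn1a and Thbs1 overlap other annotated genes on the opposite strand, so the same uncertainty holds for these targets.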

How the data were processed

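Counts per gene were used as deposited by the authors, as whole numbers. FastQC, Salmon and mm10 are named in the submitters' processing notes, while versions, strand use and the step from estimates to whole counts are not stated. Per the labels, libraries were made from total RNA after ribosomal RNA depletion. Per the file headers, the authors' table also gives each gene's length and coordinates. The length can be shorter than the span, as for Zmat3 (11435 bases, coordinates 32334792 to 32366014). How it was computed is not stated. Groups came from sample titles. The members, role groups and lists were chosen with earlier results of these data known. Counts were tested in R 4.3.3 with edgeR 4.0.16 (filterByExpr by group, TMM, quasi-likelihood, group as the only term) over all 6 libraries and without control replicate 3, with p-values adjusted over all tested genes at 0.05. DESeq2 1.42.0 and limma 3.58.1 were alternatives. Standard errors are the log2 fold change divided by the root of F. The fits were also run on simulated counts, which did not carry the length trend of control replicate 3. No result here is drawn from them. Libraries of 1 group were compared by chi-square per degree of freedom (3.19 to 4.32 without control replicate 3), so none was a copy.

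The naming rule took all members, Rbpms, Cdkn1a and up to 4 called genes per direction of the further p53 targets by smallest p. Marker genes, Bbc3, Bax, Fas, Tnfrsf10b and Pmaip1, and the example kinases and modifiers, were named outside it. Of 54532 identifiers, 54409 are in GENCODE M21. The stricter filter was 1 CPM in 3 libraries, and paralog ratios had 0.5 added to each count.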

Additional observations from a re-analysis of the deposited data

How the results depend on the processing

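In the fit without control replicate 3, the count of members called stayed at 10 to 12, all higher, under DESeq2 size factors, total library size, both filters, DESeq2, limma-voom and the length offset, and at 8 to 12 when 1 more library was left out. The count of all genes called was 1022 there and 415 to 1017 with 1 more left out, with 415 when control replicate 1 was left out, 627 for control replicate 2 and 616 for RBPMS replicate 1. Under the settings that left out no further library, from DESeq2 size factors to the length offset, 776 to 1280 of all genes were called. With every library kept, edgeR called 0 genes and 0 members, 5 genes without a filter and 3 with the length offset. DESeq2 called 56 genes (2 members) there, and limma-voom with quality weights called 1087 (555 higher and 532 lower, 10 members). Leaving out control replicate 1 or 2 as well leaves 1 control, which is assumed to vary like the RBPMS libraries. Leaving out 1 of the 6 gave 0 to 1022 genes and 0 to 11 members, the upper values without control replicate 3. Same-numbered libraries did not deviate together (correlations of 0.045, -0.032 and 0.0046), so numbers are not treated as pairs, and the replicate block gave 0 genes and 0 members over all 6 and 917 genes and 11 members without control replicate 3.

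Signs that turned were all of log2 fold changes not called in the fit concerned. Over all 6 libraries Trp53 had 0.0017 with total library size, 0.0032 with the length offset and 0.034 with quality weights. Ercc5 had -0.0034 without a filter and -0.077 with the length offset, which also gave -0.13 for Cdip1, -0.030 for Rrm2b and 0.039 for Ak1. Quality weights gave 0.19 for Rap2b, 0.079 for Ak1 and 0.25 for Pmm1. Leaving out 1 library gave -0.033 to 0.030 for Trp53, -0.013 to 0.16 for Ppm1d, -0.092 to 0.32 for Dram1, -0.055 to 0.062 for Ercc5, -0.065 to 0.49 for Dcxr, -0.17 to 0.19 for Rap2b, -0.15 to 0.055 for Ak1 and -0.28 to 0.26 for Pmm1. Without control replicate 3, Mdm4 had -0.014 with the replicate block and -0.015 with the length offset, Plk2 -0.0021 with the block and Rps27l 0.034 with the offset. With 1 more library left out the ranges were -0.039 to 0.068 for Mdm4 (-0.010 without RBPMS replicate 3), -0.0051 to 0.034 for Plk2, -0.35 to 0.47 for Dram1, -0.11 to 0.17 for Tigar, -0.0012 to 0.048 for Xpc and -0.043 to 0.012 for Rps27l. The paralog difference for Mdm2 to Mdm4 ran from -0.037 to 0.32 with 1 library left out, negative without control replicate 1 or 2, and the other 3 pairs kept their sign in every setting tried. The cause was not tested. Depth limits Ddb2, Dram1 and Ddit4l, with 35 to 96 counts per library, whose standard errors were 0.235 to 0.255.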
